A study of Mus musculus with 9 samples.

Results

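Cxcl1, Cxcl2, Cxcl3 and Cxcl5 encode the mouse chemokines that attract neutrophils through the receptor CXCR2. They were taken by gene symbol, 4 of the 27370 genes in the deposited count table, and all 4 were among the 15103 genes with enough reads to be tested. CXCR2 ligands are small secreted proteins that bind to proteoglycans on cell surfaces and form gradients along which neutrophils leave the blood and move through tissue. Stromal cells transcribe them at a low rate until signals such as interleukin 1, tumour necrosis factor, interleukin 17 or bacterial products activate NF-kB, and their mRNAs are short-lived because AU-rich elements in the 3' untranslated region recruit decay factors.

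The samples were bulk polyA RNA from sorted mouse fibroblasts, in 9 libraries of 2 mice each. All mice were 4 months old and carried Wt1CreERT2, RosatdTomato and CD64DTR. These are a tamoxifen-inducible Cre recombinase from the Wt1 gene, a red reporter that Cre switches on, and a diphtheria toxin receptor under control of CD64 (Fcgr1, a macrophage Fc receptor). Lymph node fibroblastic reticular cells (FRC), the tdTomato- stroma of untreated mice, made up 3 libraries. Red pulp fibroblasts (RPF), the tdTomato+ stroma of the spleen, gave 3 libraries from untreated mice and 3 from mice given diphtheria toxin, which kills cells that carry its receptor. With 12 mice in all and 6 per group, the untreated FRC and RPF came from the same 6 animals; no label ties an FRC library to an RPF library, and their comparison treats these libraries as independent. Replicate numbers are names only. Toxin-treated lymph nodes and mice without the receptor are not analysed here, so an effect of the toxin itself and of the loss of CD64+ cells cannot be told apart. No label states how long after toxin the cells were sorted.

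Libraries held 25414645 to 43879806 counts. Wt1 lay between 59.9 and 64.9 CPM (counts scaled to a common library size) in untreated RPF, between 26.9 and 39.4 in toxin-treated RPF and at or below 2.39 in FRC. Pdpn, which encodes the FRC surface protein gp38, lay between 71.1 and 78.4 CPM in FRC and at or below 0.20 in RPF. Both kinds of cell expressed the fibroblast receptor gene Pdgfrb, at 492 CPM or more. The 9 reticular fibroblast markers, Pdgfrb among them, summed to 55160 to 59584 CPM in FRC and 6621 to 7711 CPM in untreated RPF. After toxin they summed to 5712 to 6324 CPM. Of the 9, 8 were called lower and 1 higher in untreated RPF than in FRC, beside 14.4% and 11.5% of tested genes. FRC replicate 1 and untreated RPF replicate 1 held 0 and 1 counts over 4 Y-linked genes, against 2285 to 6101 in the other 7 libraries. No toxin-treated library was of this kind, so the comparison of the RPF groups is not balanced for Y-linked reads. Untreated RPF replicate 1 also held 6.62 CPM of the mesothelial marker Msln, which was at 0 in the other 8 libraries. That library had the highest Cxcl1, Cxcl3 and Cxcl5 among untreated RPF, so several results that move without it are given with and without it.

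The genes lie in a cluster on the plus strand of chromosome 5 (mm10), and each has 4 exons in the GENCODE M21 annotation. Cxcl5 (ENSMUSG00000029371) spans 90759360 to 90761624 and Cxcl3 (ENSMUSG00000029379) spans 90786103 to 90789600. Cxcl1 (ENSMUSG00000029380) spans 90891241 to 90893115 and Cxcl2 (ENSMUSG00000058427) spans 90903871 to 90905938. RefSeq promoters (GRCm38.p6, the same chromosome coordinates as mm10) were matched for 3 of the 4 genes. The 100 bases before the earlier of the RefSeq and the deposited start are shown for these 3 genes. No promoter was matched for Cxcl5, so whether it holds the same runs was not tested. Capitals mark every run of at least 8 bases that all 3 promoters hold within 250 bases before their starts.
Cxcl1, chr5:90891141-90891240, plus strand: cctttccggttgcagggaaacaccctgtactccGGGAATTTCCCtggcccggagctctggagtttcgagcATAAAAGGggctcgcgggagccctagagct
Cxcl2, chr5:90903771-90903870, plus strand: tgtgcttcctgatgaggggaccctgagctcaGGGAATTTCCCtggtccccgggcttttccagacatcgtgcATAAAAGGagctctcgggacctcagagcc
Cxcl3, chr5:90786001-90786100, plus strand: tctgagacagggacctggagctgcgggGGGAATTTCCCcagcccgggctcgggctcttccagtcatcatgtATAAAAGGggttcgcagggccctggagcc

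Only 2 such runs were found. GGGAATTTCCC began 67 bases before the deposited gene start in Cxcl1, 69 in Cxcl2 and 75 in Cxcl3, or 71, 97 and 73 bases before the RefSeq start. It holds the NF-kB consensus in 2 overlapping frames. ATAAAAGG, which resembles a TATA box, began 30, 29 and 31 bases before the deposited start, or 34, 57 and 29 before the RefSeq start, which in Cxcl2 lies 28 bases inside the deposited gene. In the 250 bases before the start of 27025 RefSeq genes, on either strand, GGGAATTTCCC was found in 14 genes (0.0518%) and ATAAAAGG in 1.83%. Both runs were picked from these 3 promoters, which are themselves counted, so these shares are no test of the runs. The printed stretches of the 3 related genes were 60.2% to 68.6% identical to one another. The NF-kB consensus itself was found in 8.23% of genes. TTGCNNAA, a C/EBP motif found in 10.8% of genes, and TGANTCA, an AP-1 motif found in 7.82%, had no match in the 3 windows. TATAAA, found in 14.3% of genes, matched only in Cxcl3, where it overlaps the marked ATAAAAGG. Such matches describe letters, not bound sites.

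The coding sequences of Cxcl2 and Cxcl3 were 89.8% identical, and their transcripts shared an unbroken run of 110 bases. Reads that match both genes could be discarded or assigned to the wrong gene, so counts of the weakly expressed Cxcl3 are uncertain. How far this affected the counts was not tested. Cxcl1 was 75.6% identical to Cxcl2 and 72.6% to Cxcl3, with a longest shared run of 23 bases to each. Cxcl5 was 44.6% to 46.4% identical to the others and shared no run over 12 bases. The 3' untranslated region of Cxcl1 held 6 copies of TATTTAT, an AU-rich decay element, and that of Cxcl2 held 7. Only 0.352% and 0.192% of 21901 genes held as many. Cxcl3 held 2 copies, which 8.71% of genes reached, and Cxcl5 held 1, which 24.0% reached.

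FRC from untreated lymph nodes were the highest expressers of Cxcl1, Cxcl2 and Cxcl3, untreated RPF were the lowest for all 4 genes, and toxin-treated RPF were the highest for Cxcl5. Cxcl1, a main neutrophil attractant of stromal cells, was at 4612, 5576 and 5424 CPM in the 3 FRC libraries. It was at 84.7, 32.0 and 36.6 CPM in untreated RPF, and at 850, 1124 and 891 CPM in toxin-treated RPF. The 3 groups did not overlap. In bulk samples fewer expressing cells and less RNA per cell cannot be told apart. Cxcl2, which is made by macrophages as well as stroma, was at 139, 167 and 192 CPM in FRC. Untreated RPF held 1.36, 1.93 and 2.98 CPM of it, on 64, 98 and 90 counts, and toxin-treated RPF held 33.3, 54.1 and 48.6 CPM. Its order over the groups was that of Cxcl1, again without overlap.

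Cxcl5, a CXCR2 ligand made by epithelial and other non-blood cells, was at 263, 245 and 236 CPM in FRC. In untreated RPF it was at 40.9, 6.30 and 15.2 CPM, 6.49-fold between lowest and highest against 2.65-fold for Cxcl1 and 2.19-fold for Cxcl2, with replicate 1 highest. In toxin-treated RPF it reached 1333, 1952 and 1792 CPM, above every FRC library. Cxcl3, the least abundant ligand, was at 8.71, 7.98 and 8.38 CPM in FRC and at 2.64, 3.27 and 2.72 CPM in toxin-treated RPF. In untreated RPF it had 27 counts (0.575 CPM) in replicate 1 and 0 counts in the other 2 libraries. Its groups did not overlap either, although they rest on at most 287 counts in a library. Libraries of toxin-treated RPF stood above all those of untreated RPF for 21.4% of tested genes, and those of untreated RPF below all FRC for 23.1%. Against FRC, toxin-treated RPF stood wholly above for 24.5% of tested genes, as Cxcl5 did, and wholly below for 25.8%, as the other 3 ligands did.

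**Figure D1:**
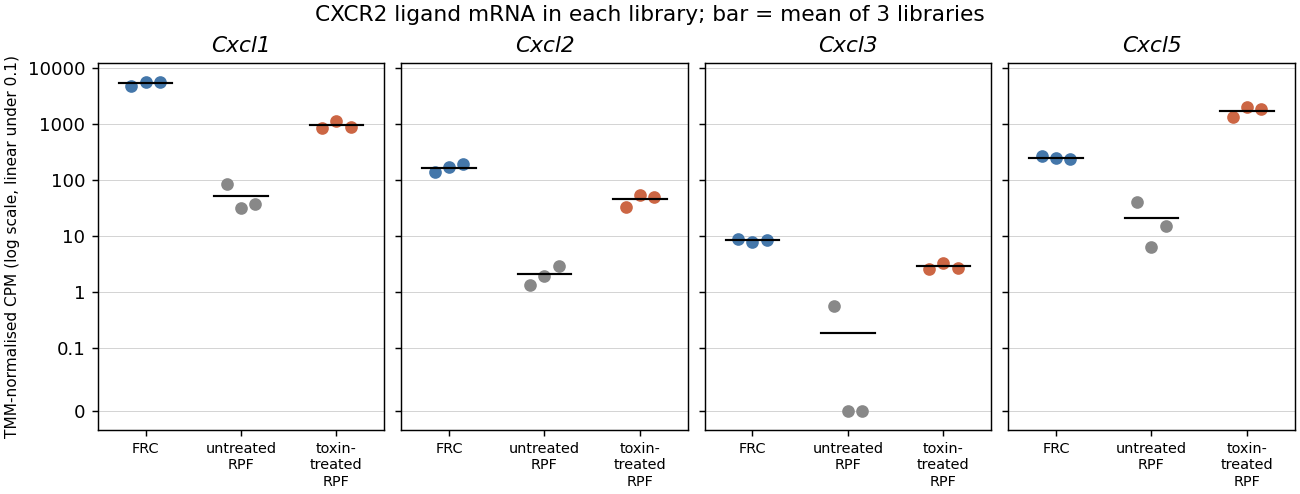
TMM-normalised CPM (vertical axis, log scale that is linear near 0) of each ligand in each library of FRC, untreated RPF and toxin-treated RPF, with points for libraries and bars for the group mean. Mean Cxcl1 was 5204 CPM in FRC, 51.1 in untreated RPF and 955 in toxin-treated RPF, whereas Cxcl5 was highest in toxin-treated RPF, at 1692 CPM.

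The comparison of toxin-treated with untreated RPF asks how spleen fibroblasts differ once CD64+ cells are targeted. Transcripts of 3 of the 4 ligands were higher after toxin, and none was called lower, where 11.1% of all tested genes were called higher and 9.96% lower. Cxcl5 rose from 20.8 ± 17.9 to 1692 ± 321 CPM (SD, n = 3 each), place 87 among all tested genes by fitted increase. Its log2 difference was 6.34 (SE 0.66, edgeR quasi-likelihood adjusted p = 0.000263). The lowest toxin-treated library lay 32.6-fold above the highest untreated one. Cxcl1 rose from 51.1 ± 29.2 to 955 ± 148 CPM, a log2 difference of 4.22 (SE 0.37, edgeR adjusted p = 0.000115). Cxcl2 rose from 2.09 ± 0.82 to 45.3 ± 10.8 CPM, a log2 difference of 4.45 (SE 0.33, edgeR adjusted p = 6.2e-05). The same gap between nearest libraries was 11.2-fold for Cxcl2 and 10.04-fold for Cxcl1.

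Cxcl3 was at 0.19 ± 0.33 CPM before and 2.88 ± 0.34 CPM after toxin, and this difference did not pass the test (log2 difference 3.86, SE 1.52, edgeR adjusted p = 0.112). With any library other than untreated RPF replicate 1 left out it did not pass either (edgeR adjusted p between 0.139 and 0.199). Without that replicate, the only untreated library with Cxcl3 reads, it passed at an edgeR adjusted p of 0.00215. The toxin-treated mean was then at least 77.6-fold above the floor of 3 counts over the remaining 2 libraries. Leaving out the only library with reads leaves 0 counts by construction, so neither value is further support for a difference. Leaving out the same library moved Cxcl5 to a log2 difference of 7.30 and Cxcl1 to 4.80, while Cxcl2 stayed near its value at 4.21.

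In untreated mice, lymph node FRC held far more of every ligand than spleen RPF. All 4 were called lower in RPF, against 14.4% of tested genes. Cxcl1 had a mean of 5204 ± 518 CPM in FRC (SD, n = 3) and was 102-fold lower in RPF, a log2 difference of -6.67 (SE 0.42, edgeR adjusted p = 7.1e-06). Cxcl2, at 166 ± 26.5 CPM in FRC, was 79.3-fold lower (log2 difference -6.32, SE 0.36, edgeR adjusted p = 4.5e-06). Cxcl5, at 248 ± 13.8 CPM in FRC, had the smallest fitted difference of the 4, at 11.9-fold lower (log2 difference -3.57, SE 0.58, edgeR adjusted p = 0.00189). Without untreated RPF replicate 1 its log2 difference was -4.53.

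Cxcl3 had a mean of 8.36 ± 0.36 CPM in FRC and a log2 difference of -5.40 in untreated RPF (SE 1.63, edgeR adjusted p = 0.0386). That call was lost when any library other than untreated RPF replicate 1 was left out, with edgeR adjusted p between 0.0568 and 0.0782. Without replicate 1 the edgeR adjusted p was 0.000817, and the FRC mean was at least 225-fold above the floor of 3 counts over the other 2 RPF libraries. Both values again follow from leaving out the only untreated RPF library with Cxcl3 reads, so they are no further support.

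Toxin-treated RPF differed from FRC in both tissue and treatment, and the ligands did not follow a single direction. Cxcl5 was 6.82-fold higher in toxin-treated RPF than in FRC (log2 difference 2.77, SE 0.56, edgeR adjusted p = 0.00452), where 16.9% of tested genes were called higher. Cxcl1 was 5.45-fold lower (log2 difference -2.45, SE 0.34, edgeR adjusted p = 0.000643) and Cxcl2 was 3.66-fold lower (log2 difference -1.87, SE 0.29, edgeR adjusted p = 0.00117), where 18.8% were called lower. Cxcl3 had a log2 difference of -1.54 (SE 1.37, edgeR adjusted p = 0.424), which did not pass. These comparisons share libraries pairwise, so their values are set side by side and are not independent.

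**Figure D2:**
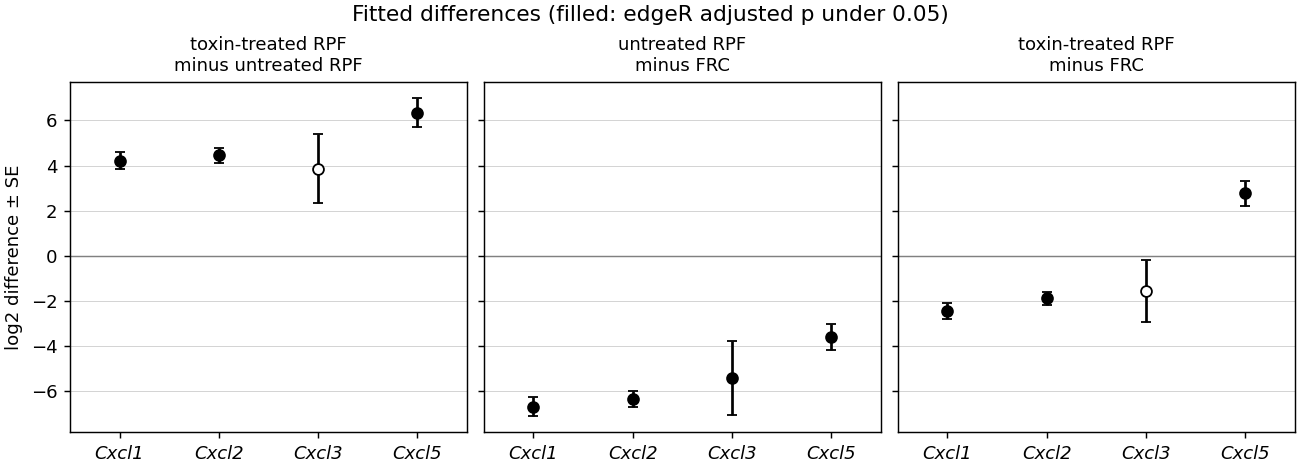
Log2 differences of the 4 ligands in the 3 comparisons, with points for the edgeR estimate, filled where the adjusted p is under 0.05, and bars for 1 SE on each side. Cxcl1, Cxcl2 and Cxcl5 stand on the positive side after toxin and on the negative side in untreated RPF against FRC, and Cxcl5 alone is positive, at 2.77, in toxin-treated RPF against FRC.

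The make-up of the family, in CPM per kilobase of the deposited median transcript length, differed between groups. Cxcl1 made up 93.4 ± 0.49% of the summed level of the 4 genes in FRC, 74.4 ± 6.6% in untreated RPF and 40.1 ± 3.0% in toxin-treated RPF (SD, n = 3). Cxcl5 made up 3.69 ± 0.57%, 21.8 ± 7.6% and 58.0 ± 2.9% in the same order. On this scale Cxcl1 exceeded Cxcl5 by 21.34-fold to 27.97-fold in the FRC libraries and by 2.52-fold to 6.18-fold in untreated RPF. Cxcl5 exceeded Cxcl1 by 1.29-fold to 1.65-fold in each of the 3 toxin-treated libraries. With GENCODE transcript lengths in place of the deposited ones, the mean shares in toxin-treated RPF were 50.5% for Cxcl5 and 47.4% for Cxcl1, so the order of these neighbours there rests partly on the length used. Cxcl2 stayed between 1.08% and 5.45% of the family in every library, and Cxcl3 did not exceed 0.300%.

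**Figure D3:**
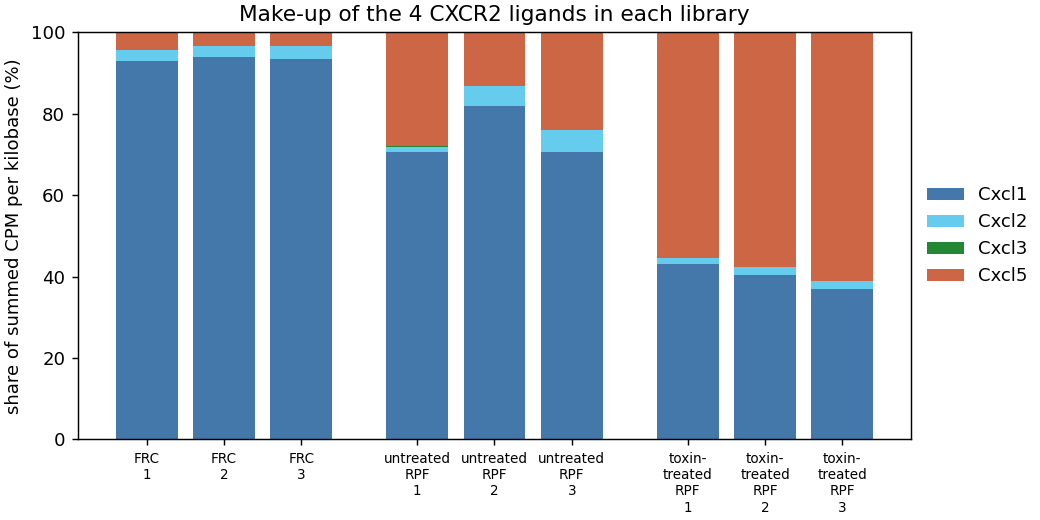
Share of each ligand in the summed CPM per kilobase of the 4 genes (vertical axis, percent), with 1 stacked bar for each library. Cxcl1 takes 92.9% to 93.9% of the FRC bars and Cxcl5 takes 55.3% to 61.1% of the toxin-treated RPF bars.

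Together the 4 genes took 0.415% to 0.477% of all counts in FRC, 0.00481% to 0.0150% in untreated RPF and 0.233% to 0.329% in toxin-treated RPF. Ranked per kilobase among the 15103 tested genes, Cxcl1 stood between place 22 and place 25 from the top in FRC. It stood between places 2297 and 4801 in untreated RPF and between 138 and 200 in toxin-treated RPF. Cxcl5 stood between places 950 and 1126 in FRC, 4666 and 9469 in untreated RPF, and 92 and 149 in toxin-treated RPF.

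Within 1 Mb of the cluster, 12 other genes were tested, and 2 were called higher and 1 lower in toxin-treated than in untreated RPF, beside 11.1% and 9.96% of all tested genes. Ppbp and Pf4, which encode platelet chemokines, lie between Cxcl5 and Cxcl3. Ppbp, itself a CXCR2 ligand, had 0 counts in FRC, 5.16 ± 1.52 CPM in untreated RPF and 1.01 ± 0.53 CPM in toxin-treated RPF. It was at least 165-fold higher in untreated RPF than the floor of 3 counts over the FRC libraries, opposite in direction to the 4 ligands around it. Its difference after toxin did not pass (log2 difference -2.35, edgeR adjusted p = 0.128). All its toxin-treated libraries lay below all untreated RPF libraries, as for 23% of tested genes. Pf4 rose after toxin from 12.8 ± 0.84 to 38.9 ± 7.8 CPM (edgeR adjusted p = 0.0224). Gm22816, an annotated rRNA gene just beyond the end of Cxcl1, had means of 6.74, 0.35 and 0.80 CPM in FRC, untreated RPF and toxin-treated RPF. Its libraries overlapped between the 2 RPF groups (edgeR adjusted p = 0.334). Whether its reads come from Cxcl1 transcripts was not tested. Mthfd2l, a folate pathway gene just beyond Cxcl2, had means between 6.20 and 8.23 CPM in the 3 groups. Ereg, which encodes the EGF receptor ligand epiregulin, lies 315 kb from the start of Cxcl5. It had 372, 380 and 385 counts in the toxin-treated libraries, 0 in untreated RPF and 1 in FRC. Btc, which encodes another EGF receptor ligand, fell from 2.15 ± 2.17 to 0.024 ± 0.023 CPM (edgeR adjusted p = 0.0202), although the libraries of the 2 groups overlapped.

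**Figure D4:**
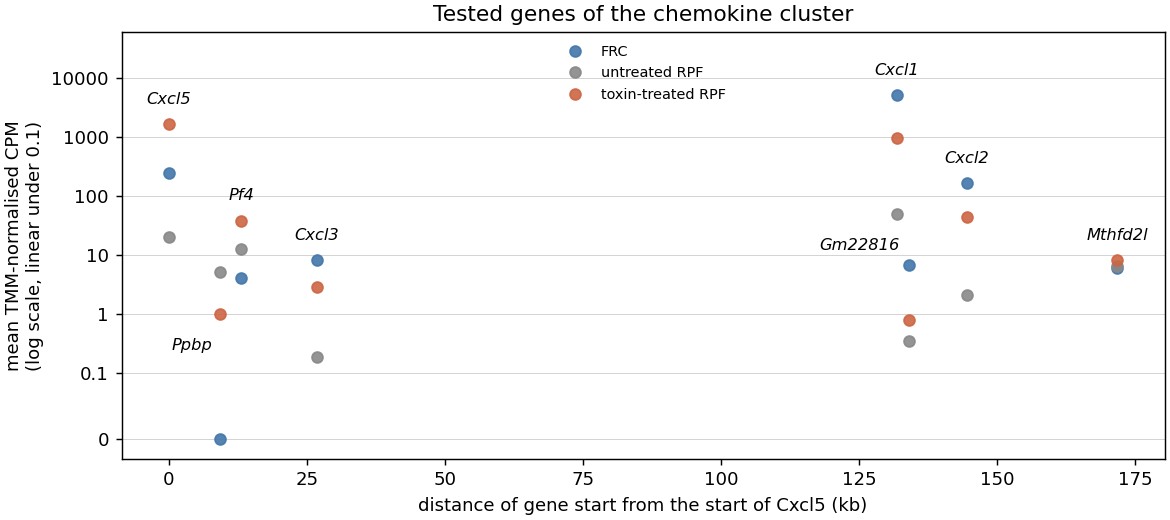
Mean TMM-normalised CPM (vertical axis, log scale that is linear under 0.1) of the tested genes of the chemokine cluster against the distance of each gene's start from the start of Cxcl5 in kilobases, with 1 point for each group. Cxcl1, Cxcl2 and Cxcl3 share 1 order of groups, Cxcl5 is highest in toxin-treated RPF, and Ppbp is highest in untreated RPF.

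Among the other CXCR2 ligands and their receptors, Mif, a cytokine that also binds CXCR2, rose after toxin from 26.8 ± 3.6 to 116 ± 11.7 CPM (edgeR adjusted p = 8.25e-05). It stood at 20.8 ± 1.8 CPM in FRC. Ackr1, a scavenger of these chemokines, had means of 0.060 CPM in FRC, 1.39 in untreated and 0.28 in toxin-treated RPF. It passed no test in the edgeR fit over all 9 libraries. In that fit none of the 3 tested genes of this list, Ppbp among them, was called lower after toxin. DESeq2, limma-voom and a fit of only the 2 RPF groups each called 1 of the list lower. Cxcr2 itself had 0 counts in all 6 RPF libraries and was not tested. Cxcr1 and Cxcl15 are not analysed here.

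The lists that follow are read against the 11.1% of all tested genes called higher and the 9.96% called lower after toxin, and a median log2 difference of -0.09. Other CXC chemokines were called higher after toxin in 4 cases and lower in 1 of 7 tested (median log2 difference 1.61). Cxcl16, a membrane-bound chemokine, rose from 73.2 ± 8.0 to 461 ± 48.6 CPM (edgeR adjusted p = 8.47e-06). Levels of Cxcl13, which draws B cells into follicles, were 72.1 ± 15.6 CPM before and 173 ± 52.1 CPM after toxin (edgeR adjusted p = 0.00559). Cxcl12, the homeostatic ligand of CXCR4, fell from 18803 ± 604 to 9842 ± 1280 CPM (edgeR adjusted p = 0.000426). In untreated RPF against FRC, 1 of the 7 was higher and 5 were lower, beside 11.5% and 14.4% of all tested genes. Cxcl16 was 7.24-fold lower (edgeR adjusted p = 1.21e-06), Cxcl13 was 16.2-fold lower and Cxcl9, an interferon-induced T cell attractant, was 16.9-fold lower.

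Receptors and adaptors of interleukin 1, tumour necrosis factor, interleukin 17 and Toll-like receptor signalling were called higher after toxin in 9 of 19 cases and lower in none, with 11.1% of all tested genes called higher (median log2 difference 0.65). Myd88, the adaptor of interleukin 1 and Toll-like receptors, rose from 80.7 ± 11.3 to 183 ± 7.3 CPM. Tnfrsf1b, a tumour necrosis factor receptor, rose from 265 ± 50.8 to 656 ± 56.3 CPM, and Il17rc, an interleukin 17 receptor chain, rose from 77.0 ± 10.3 to 131 ± 4.2 CPM. With library totals as the only scaling, 6 of 19 were called. Of the ligands of these receptors, 6 were tested and 1 was called in each direction. Il33, an alarmin of stromal cells, rose from 26.5 ± 16.7 to 116 ± 47.6 CPM, and Il18 had 0 counts after toxin against 5.20 ± 1.59 CPM before. Tnf was at 0.15 ± 0.26 and 12.1 ± 4.3 CPM and did not pass (edgeR adjusted p = 0.0804).

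Transcription factors chosen as regulators of CXCR2 ligand genes were called higher after toxin in 14 of 17 cases and lower in none. This stands again beside 11.1% of all tested genes, and the median log2 difference of the list was 1.51. Whether each of these factors acts on the promoters of the ligands was not tested. Cebpb rose from 151 ± 31.2 to 632 ± 51.2 CPM (edgeR adjusted p = 0.000152). Rela, the activating NF-kB subunit, rose from 142.9 ± 13.03 to 398.9 ± 66.01 CPM, and Fosl2, an AP-1 subunit, from 31.4 ± 5.4 to 119 ± 11.6 CPM. In untreated RPF against FRC all 17 were called lower, beside 14.4% of all tested genes. The median log2 difference was -2.36, against -0.02 over all tested genes. Fosl2 was at 299 ± 55.4 CPM in FRC and 31.4 ± 5.4 in untreated RPF (edgeR adjusted p = 5.55e-06). Egr1, an immediate early gene, was at 15691 ± 1549 CPM in FRC and 1722 ± 499 in untreated RPF. Junb was at 2367 ± 266 and 459 ± 97.2 CPM. Immediate early genes also respond to tissue dissociation, and its part in the FRC levels of these genes or of the ligands was not tested.

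The list of signalling inhibitors and of RNA-binding proteins that act on mRNA stability holds factors that speed decay and also Arid5a and Elavl1, which are known to stabilise transcripts. Its members were called higher after toxin in 11 of 14 cases and lower in none, Arid5a and Elavl1 among the 11, beside 11.1% of all tested genes (median log2 difference 1.36). Tnip1, an NF-kB inhibitor, rose from 36.9 ± 6.5 to 206 ± 11.1 CPM (edgeR adjusted p = 4.04e-05). Zc3h12a, the endonuclease Regnase-1, rose from 5.15 ± 1.90 to 51.7 ± 6.7 CPM, and Arid5a, an RNA-binding protein that opposes it, from 36.3 ± 3.8 to 92.9 ± 9.4 CPM. In untreated RPF against FRC 12 of the 14 were called lower (median -2.42), beside 14.4% of all tested genes. Zfp36, which binds AU-rich elements, was at 3024 ± 188 CPM in FRC and 327 ± 72.5 in RPF. Arid5a was 7.87-fold lower and Tnip1 was 4.67-fold lower in RPF.

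**Figure D5:**
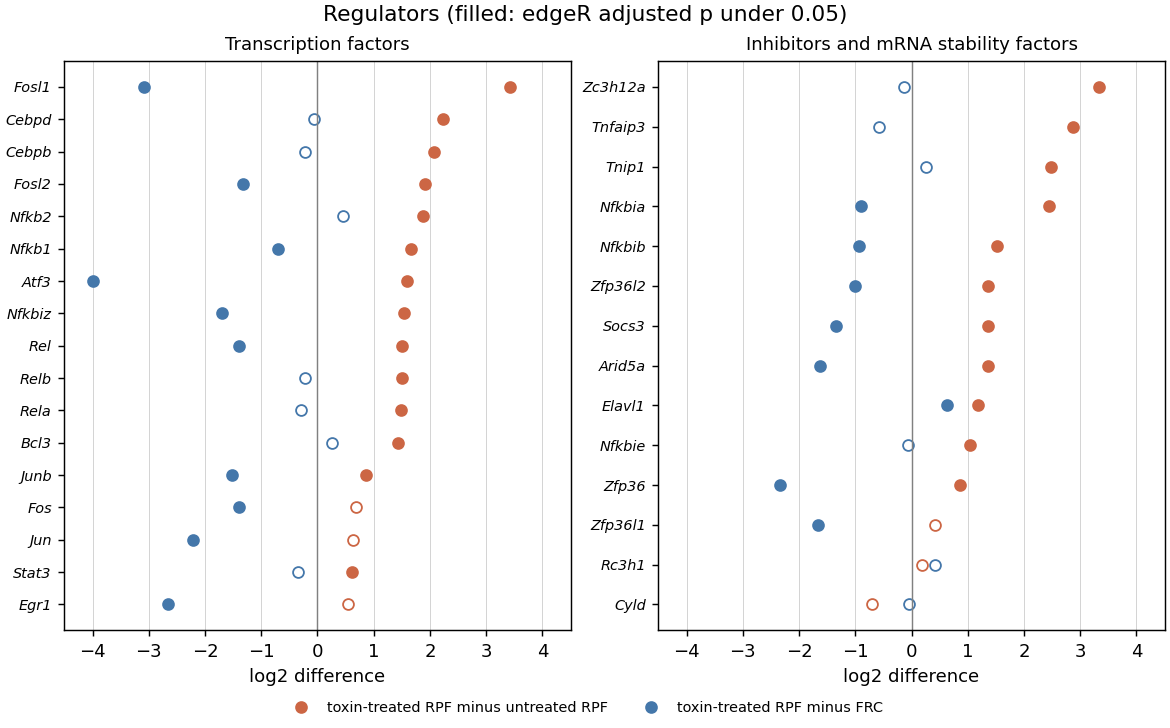
Log2 differences of the tested transcription factors (left) and of inhibitors and mRNA stability factors (right), toxin-treated RPF minus untreated RPF and toxin-treated RPF minus FRC, with filled points where the edgeR adjusted p is under 0.05. After toxin 14 of 17 and 11 of 14 were higher than in untreated RPF, whereas against FRC 10 of 17 and 7 of 14 were lower and 0 and 1 higher (8 and 5 lower, 2 and 3 higher, with library totals as the only scaling). Over all tested genes 11.1% were called higher after toxin, and against FRC 18.8% lower and 16.9% higher.

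Other signals to neutrophils were called higher after toxin in 7 of 13 cases and lower in 1, beside 11.1% and 9.96% of all tested genes (median log2 difference 3.70). Il6, a cytokine of acute inflammation, reached 294 ± 167 CPM from 3.20 ± 1.48 (edgeR adjusted p = 9.27e-05). Its relative Lif rose from 23.2 ± 6.7 to 350 ± 168 CPM, and Saa3, an acute phase protein, from 0.045 ± 0.016 to 12.9 ± 5.3 CPM. Csf3, the growth factor of neutrophils, had 0 counts in untreated RPF and 12.6 ± 7.3 CPM after toxin, at least 536-fold above the floor of 3 counts. In FRC it stood at 24.4 ± 11.2 CPM. Among 12 proteoglycans and enzymes that bind or trim CXC chemokines, 4 were called higher and 3 lower after toxin (5 lower with library totals), with a median log2 difference of -0.51 against -0.09 over all tested genes. Sdc4, a cell surface heparan sulfate proteoglycan, rose from 532 ± 62.5 to 6834 ± 812 CPM (edgeR adjusted p = 4.04e-05). Tnfaip6, which binds several chemokines, rose from 7.63 ± 3.07 to 62.1 ± 11.1 CPM, and Mmp2 fell from 362 ± 66.4 to 133 ± 2.0 CPM. Mmp8, a collagenase that trims chemokines, had 0 counts in both untreated groups and 71.3 ± 26.5 CPM after toxin. Csf3 and Mmp8 were named after their values were seen and are given as levels, without a test result. Without untreated RPF replicate 1, 16 of 17 transcription factors and 11 of 14 inhibitors and stability factors were called higher after toxin. Receptors and adaptors were then called higher in 7 of 19 cases. Of the other CXC chemokines 3 of 7 were then higher and 1 lower, and of the other signals 6 of 13 were higher and none lower. Without that library 7.98% of all tested genes were called higher.

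For the remaining lists in untreated RPF against FRC, the counts stand beside 11.5% of all tested genes called higher and 14.4% lower. Of the other signals to neutrophils, 9 of 13 were lower and none higher (median log2 difference -4.47), and 8 lower and 1 higher with library totals. C3, the central complement protein, was at 57508 ± 6243 CPM in FRC and 1617 ± 355 in untreated RPF (edgeR adjusted p = 4.5e-06). Icam1, an adhesion molecule for neutrophils, was 7.41-fold lower, and Saa3 had a mean of 107.6 CPM in FRC against 0.045 in RPF. Receptors and adaptors were lower in 7 of 19 cases and higher in 1, but lower in 5 and higher in 5 with library totals as the only scaling. Myd88 was 5.15-fold lower, Il1r1, the interleukin 1 receptor, 2.56-fold lower and Il17ra 6.06-fold lower. Of their 6 tested ligands, 1 was called, Il33, which was 31.3-fold lower. Proteoglycans and enzymes were lower in 5 of 12 cases and higher in 1 (3 with library totals). Sdc3, a syndecan, was 18.1-fold higher in RPF, whereas Tnfaip6 was 225-fold lower and Mmp2 was 5.85-fold lower.

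In toxin-treated RPF against FRC, where 16.9% of all tested genes were called higher and 18.8% lower, Mif was 5.58-fold higher. Other CXC chemokines were lower in 5 of 7 cases and higher in 1, with Cxcl12, Cxcl13 and Cxcl9 at 2.39-fold, 6.74-fold and 21.4-fold lower. Other signals to neutrophils were lower in 5 of 13 cases and higher in 1. C3 was 26.4-fold lower, Icam1 3.97-fold lower and Vcam1, another adhesion molecule, 2.88-fold lower. Receptors and adaptors were called higher in 6 and lower in 6 of 19 cases (9 and 4 with library totals). Tnfrsf1b was 4.04-fold higher, Myd88 2.27-fold lower and Il1r1 1.70-fold lower. Il33 was 7.13-fold lower, and Il18 had 0 counts after toxin against 6.59 ± 3.18 CPM in FRC. Of the transcription factors 10 of 17 were lower, and Egr1, Junb and Atf3 were 6.29-fold, 2.85-fold and 15.9-fold lower. Of the inhibitors and stability factors 7 of 14 were lower and 1 higher, and Zfp36, Arid5a and Zfp36l1 were 5.05-fold, 3.08-fold and 3.15-fold lower. Proteoglycans and enzymes were higher in 4 and lower in 5 of 12 cases, with Sdc3 9.36-fold higher, Mmp2 15.9-fold lower and Tnfaip6 27.7-fold lower.

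Profiles over the 9 libraries were compared as centred log2(CPM + 0.5) values, by their root mean square difference, among 10088 other genes with a mean of at least 5 CPM. Cxcl1 was nearest to Syt13 (0.37), Ifi205 (0.43) and Cxcl2 (0.64). In untreated RPF the means of Syt13 and Ifi205 were 0.40 and 0.69 CPM. These lie near the added 0.5, which narrows their differences between groups, so their nearness may depend on it. Cxcl2 was nearest to F3 (0.49), the tissue factor gene, and then to Cxcl1 and Ifi205 (0.64 each). The profile of Cxcl5 stood apart from these, at 2.15 from Cxcl1 and 2.04 from Cxcl2, and its nearest genes were Tnfrsf12a (0.81), the receptor of TWEAK, Timp1 (0.83), a metalloproteinase inhibitor, and Mmp3 (0.84), the protease stromelysin, all with their highest mean in toxin-treated RPF. Cxcl3 was nearest to Maff (0.20), Ifrd1 (0.25) and Nfkbia (0.26) among 10089 genes, but the added 0.5 compresses a gene at its level.

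Transcripts of other cell types were checked because leukocytes can also make CXCR2 ligands. The summed level of the 9 neutrophil markers in the table was 40.8 to 317 CPM in untreated RPF, 1.38 to 42.2 in toxin-treated RPF and 1.46 to 7.81 in FRC. The neutrophil marker Ly6g did not exceed 0.40 CPM in any library. Of the 7 neutrophil markers tested, 3 were called higher in untreated RPF than in FRC, beside 11.5% of all tested genes. After toxin the lowest edgeR adjusted p of the 7 was 0.154 (Csf3r). The red pulp macrophage markers summed to 261 to 336 CPM in untreated RPF and 79.9 to 108 CPM after toxin, and C1qa, Cd5l, Adgre1 and Fcgr1 were at 0 counts after toxin. Monocyte markers summed to 288 to 318 CPM in FRC, of which Cd14 made up 258 to 293 CPM, against 54.7 to 84.8 in untreated RPF and 11.6 to 21.9 after toxin. Mesothelial markers summed to 18.7 to 22.1 CPM in FRC, and in untreated RPF to 11.4 CPM in replicate 1 and 0.81 and 0.86 CPM in the other 2 libraries. Lymphatic endothelial markers summed to 1037 to 1194 CPM in FRC and 2.87 to 9.92 CPM in RPF. Ccl21a, which FRC also express, made up 1021 to 1191 CPM of the FRC sums, and the lymphatic marker Lyve1 did not exceed 0.61 CPM. Mural cell markers summed to 1602 to 1830 CPM in FRC, 1232 to 1458 CPM in untreated RPF and 1877 to 2282 CPM after toxin. After toxin 3 of the 7 were called higher (Des, Mcam and Notch3) and 1 lower (Kcnj8), beside 11.1% and 9.96% of all tested genes. Megakaryocyte and platelet markers, Ppbp and Pf4 among them, summed to 5.70 to 20.1 CPM in FRC. Their sums were 21.0 to 24.3 CPM in untreated RPF and 38.4 to 47.8 CPM after toxin. In the same order blood endothelial markers summed to 71.9 to 96.9, 85.8 to 182 and 38.3 to 44.3 CPM. B cell markers summed to 76.1 to 168, 102 to 232 and 18.9 to 42.8 CPM. Erythroid markers summed to 0.51 to 99.1, 168 to 725 and 395 to 625 CPM. The part of transcripts of any of these cell types in the ligand levels was not tested.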

How the data were processed

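Per the submitters' processing notes, the tools were HTSeq 0.6.1p1, STAR 2.5.3a, Bowtie2 2.2.8 and cutadapt 1.10, with build mm10. Whether counting used strand, and the annotation release, are not stated in these notes. The authors deposited raw read counts per gene for each library, with a median transcript length for each gene, another kind of value that is not a measurement of the samples. The table's 24 further columns of per-sample values were not used, and 2 further libraries are not analysed here.

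Counts were fitted in edgeR 4.0.16 (R 4.3.3) with TMM scaling, filterByExpr and a robust quasi-likelihood F-test over all 9 libraries, with 6 residual degrees of freedom. Tests were two-sided, with Benjamini-Hochberg adjustment over 15103 genes and a threshold of 0.05. SE is the absolute log2 difference divided by the square root of F. Effective library sizes gave the CPM. Alternatives used DESeq2 1.42.0, limma 3.58.1, other scalings and filters, and left out each library in turn. Sequences were read with Biopython 1.88.

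The genes and lists were chosen with earlier results of these data known. Named were all 4 ligands, every other CXCR2 ligand or receptor, and from each other list, for each comparison, the 3 called genes with the smallest p at 1 CPM or more in the higher group. Tnf, Csf3, Mmp8, Gm22816 and the neighbouring genes were named after their values were seen. Each library pools 2 mice, and p-values measure the spread between these libraries.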

Additional observations from a re-analysis of the deposited data

How the results depend on the processing

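Cxcl1, Cxcl2 and Cxcl5 kept their direction and their call in all 3 comparisons under all 19 alternatives, with the highest adjusted p at 0.0195 (Cxcl5, toxin-treated RPF against FRC). No ligand changed direction. Cxcl3 after toxin was called by DESeq2 (log2 difference 3.85), by limma-voom (5.93) and with a term for the 2 libraries without Y-linked reads (6.71), which was chosen after seeing the data; leaving out 1 library gave 3.28 to 9.72. Cxcl3 in untreated RPF against FRC was not called with only the 2 groups compared in the fit (-5.33), and leaving out 1 library gave -11.26 to -4.81. Genes called lower after toxin numbered 1505, against 2310 by DESeq2 and 968 to 1561 with 1 library left out, the fewest without untreated RPF replicate 2. With library totals and no TMM, untreated RPF against FRC had 3935 higher and 1342 lower genes (1734 and 2174 with TMM), and toxin-treated RPF against FRC had 3933 higher (2557 with TMM). Higher genes were then 74.6% of those called in place of 44.4%, 64.9% in place of 47.4%, and after toxin 41.0% in place of 52.6%; the median over all tested genes moved to 0.55, 0.34 and -0.26. Mean levels in FRC on library totals were 4129 CPM for Cxcl1, 131 for Cxcl2, 6.65 for Cxcl3 and 198 for Cxcl5. The cause of these changes was not tested. No paired analysis was possible because the labels give no replicate number shared between groups, although untreated FRC and RPF came from the same animals and their comparison treats the libraries as independent. Among the ligands Cxcl3 rests on the fewest reads, with 0 to 27 counts in untreated RPF.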
